A study of Glycine max with 108 samples.

Results

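The 100 genes whose transcript levels varied least in soybean flowers and leaves under single and combined abiotic stress were examined here. They were chosen by their spread alone. Of 57147 features in the deposited tables, 55897 carried an identifier of the GLYMA form, and 3517 of these had a mean of at least 20 FPKM in both tissues, a unit that scales the mapped fragments of a gene by its transcript length and by the size of the library. For each of the 3517 genes the standard deviation (SD) of log2(FPKM + 1) was taken over 51 flower libraries and, apart from that, over 53 leaf libraries, and the larger of the 2 SDs was its score. The 100 lowest scores gave the members, and the remaining 3417 genes are called the other eligible genes below. The rule also named 5 genes to be left out, none of which was among the 100 lowest scores.

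Plants of soybean (Glycine max, cultivar Magellan) were grown from seed coated with a Bradyrhizobium japonicum inoculum, and leaves and flowers were taken at 31 days. Each tissue had 17 stress treatments and an unstressed control, with 3 samples each in the labels, every sample a pool of 5 to 7 plants. The single stresses were 15 mM salinity given once at the start, acidity at pH 4, water deficit with 30% of the water available for transpiration, phosphate lowered by 90%, and 300 µM cadmium. Leaving cadmium aside, the other stresses were also applied in all 6 pairs, all 4 triples and all together (the 4-stress combination), and cadmium was added to these in a 5-stress combination. The labels state the pH and the phosphate level only for the single stresses. All groups share the cultivar and the inoculum, and all stresses other than water deficit were in the nutrient solution from the start of growth. Because the samples are tissue pools, fewer cells of a type and less RNA per cell cannot be told apart.

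Transcripts that keep a steady level serve as internal references when other transcripts are quantified, for example by RT-qPCR. In plants, genes of general cell upkeep, such as those for actin, tubulin, ubiquitin and translation elongation factors, are commonly used in this way. A gene steady in 1 organ or under 1 treatment can shift in another, so spread is usually judged in each organ and treatment on its own and again across them. The files give identifiers only, and none of the 57147 matched the gene table at hand, 0 in all. The members are therefore described by identifier, without names, roles or sequences, and the leaf and flower marker lists could not be used to check the tissue labels.

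In 4 of the 108 deposited columns the values equalled the mean of the group's other 2 columns to within 0.01% in at least 99.9978% of features, and these were not counted as libraries. The leaf control and, in flowers, acidity, water deficit and the 4-stress combination therefore have n = 2, and every leaf comparison with control rests on 2 control libraries. FPKM summed to between 611857 and 680482 per flower library and between 617269 and 713376 per leaf library. The number of reads per library is unknown, so no counting interval is given. In flower acidity + water deficit replicate 3 lay the highest flower value of 23 of the 100 members, more than in any other flower library. Leaf acidity + water deficit + low phosphate replicate 3 held the lowest leaf value of 18 members, more than any other leaf library. Leaving out the flower library kept 98 of the 100 members, and leaving out the leaf library kept 89.

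The member scores ran from 0.0990 to 0.153, with a median of 0.138 on the log2 scale, against a median of 0.336 in the other eligible genes. The median member SD was 0.111 in flowers and 0.136 in leaves, and that of the other eligible genes was 0.171 in flowers and 0.331 in leaves. Since the rule used these SDs, they describe the choice and are not a finding. The leaf SD was the larger one in 79 members and the flower SD in 21, while leaf was the larger in 91.4% of the other eligible genes. Across all 104 libraries no member fell below 16.6 FPKM in a flower library or 15.6 FPKM in a leaf library. The highest library was under 2 times the lowest in both tissues for all 100 members, which the choice by low spread largely fixes. Of the other eligible genes, 68.7% were under that ratio in flowers and 15.3% in leaves. The median member had a ratio of highest to lowest library of 1.46 in flowers and 1.55 in leaves.

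**Figure D1:**
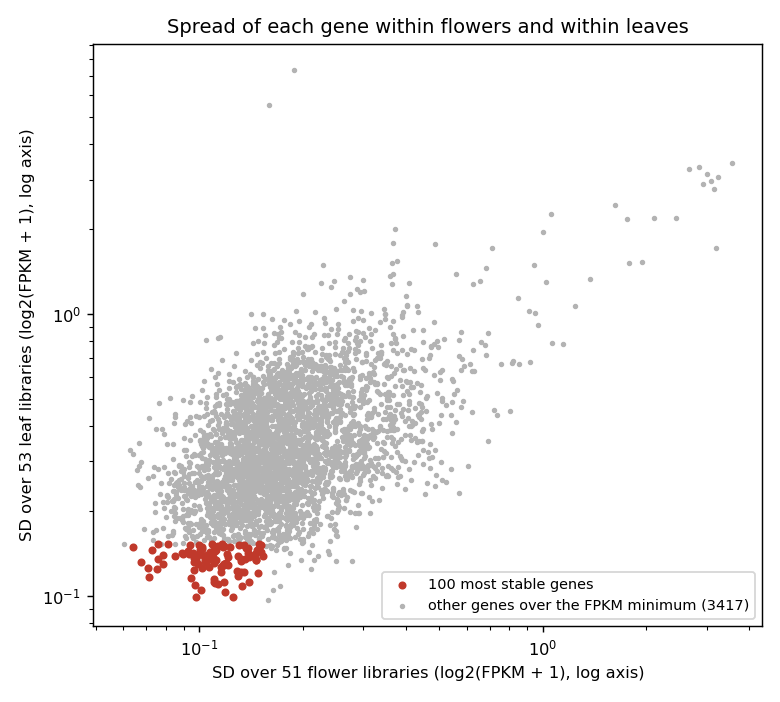
SD of log2(FPKM + 1) of each gene over 51 flower libraries (x axis, log scale) and over 53 leaf libraries (y axis, log scale), for the 100 members in red and the 3417 other eligible genes in grey. The members fill the corner below 0.153 on both axes, and most grey points lie higher on the leaf axis than on the flower axis.

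The lowest score, 0.0990, belonged to GLYMA_17G000700. Its level was 34.7 FPKM in the lowest, 40.7 in the median and 47.7 in the highest flower library, and 60.3, 70.3 and 83.8 FPKM in the lowest, median and highest leaf library. All its flower libraries lay below all its leaf libraries, so the gene with the lowest score still differed between the tissues. GLYMA_17G243600 came second, with 37.6, 44.7 and 50.1 FPKM in the lowest, median and highest flower library and 40.1, 43.4 and 54.2 FPKM in the corresponding leaf libraries. Its flower and leaf ranges overlapped over most of their width, and it had the lowest SD of all eligible genes over the libraries of both tissues. GLYMA_14G210700 was the most abundant of the first 10, with 90.2, 116 and 136 FPKM in flowers and 66.5, 81.2 and 94.0 FPKM in leaves, again as lowest, median and highest library. Its ranges overlapped a little, the highest leaf library standing above the lowest flower library.

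GLYMA_19G209700, in the ninth place, was steadier in flowers than any other of the first 10, with an SD of 0.0715 against 0.117 in leaves. Its lowest, median and highest libraries were at 24.9, 27.4 and 31.0 FPKM in flowers and at 21.2, 24.5 and 31.7 FPKM in leaves. GLYMA_03G173400 had 37.3, 44.5 and 49.5 FPKM in flowers and 33.4, 42.0 and 49.3 FPKM in leaves, and the ranges again overlapped over most of their width. GLYMA_12G181300 averaged 20.6 ± 1.46 FPKM in flowers and 23.3 ± 1.87 FPKM in leaves (SD over 51 and 53 libraries), the lowest flower mean of any member and close to the 20 FPKM minimum. The other 4 of the first 10 were GLYMA_03G100800, GLYMA_11G078700, GLYMA_03G262800 and GLYMA_16G062100, with means between 23.3 and 32.8 FPKM in flowers and between 20.4 and 38.3 FPKM in leaves.

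**Figure D2:**
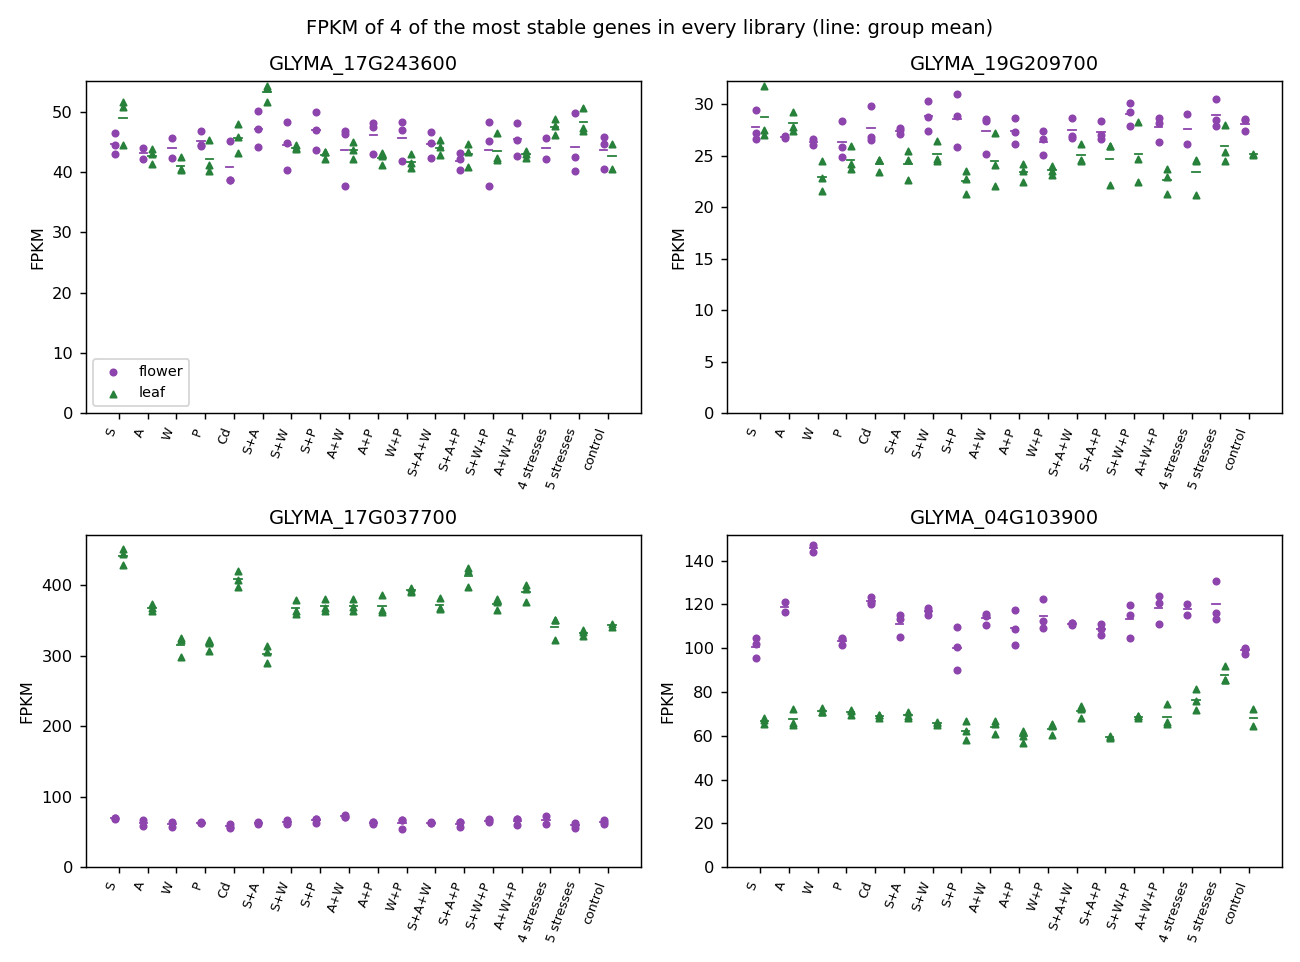
FPKM (y axis, from 0) of 4 members in every flower library (purple circles) and leaf library (green triangles) by treatment, with short lines for group means and control at the right of each panel. GLYMA_17G243600 and GLYMA_19G209700 lie at a similar level in both tissues, GLYMA_17G037700 is far lower in flowers, with 54.3 to 74.1 FPKM, than in leaves, with 289.9 to 452 FPKM, and GLYMA_04G103900 stands highest in the 2 flower water-deficit libraries.

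The edge of the membership was a shallow one. The last members were GLYMA_17G088900, GLYMA_08G046200 and GLYMA_09G274500, with scores of 0.1525, 0.1526 and 0.1528. The first genes outside were GLYMA_08G363700, GLYMA_08G124600 and GLYMA_08G092100, with scores of 0.1529, 0.1532 and 0.1532. GLYMA_08G092100 had the lowest flower SD of all 3517 eligible genes, 0.0603, and fell outside on its leaf SD alone.

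Member means ran from 20.6 to 443 FPKM in flowers and from 20.01 to 404 FPKM in leaves. The median member averaged 40.3 FPKM in flowers and 35.0 FPKM in leaves, against 50.5 and 44.6 FPKM in the other eligible genes. GLYMA_06G172600 was the most abundant in both tissues, with 379, 436 and 582 FPKM in the lowest, median and highest flower library and 320.2, 402 and 497 FPKM in the corresponding leaf libraries. Next in flowers were GLYMA_04G009400 at 411 ± 42.5 FPKM and GLYMA_07G215300 at 248 ± 11.6 FPKM, and next in leaves were GLYMA_17G037700 at 367 ± 37.0 FPKM and GLYMA_20G207100 at 219 ± 20.04 FPKM (mean ± SD over libraries). A mean of at least 50 FPKM in both tissues was reached by 19 members, and at least 100 FPKM in both by 5. By the lower of their 2 means, 46 of 1406 eligible genes at 20 to 30 FPKM were members (3.27%), 35 of 1029 at 30 to 50 FPKM (3.40%), 14 of 654 at 50 to 100 FPKM (2.14%) and 5 of 428 at 100 FPKM and over (1.17%). The share was thus lowest in the most abundant class, in which the median score of all eligible genes was 0.400, against 0.310 in the 20 to 30 FPKM class.

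By their identifiers the members were spread over all 20 chromosomes. Chromosomes 04, 06 and 17 had 8 members each and chromosome 15 had 1. The closest pair, GLYMA_01G175100 and GLYMA_01G175600, stood 5 places apart in the order of identifiers, so no members were immediate neighbours in the tables.

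The question of how much of the remaining spread followed the treatments was put by splitting each gene's variance into a part between and a part within the 18 groups of a tissue. In flowers the median member had 34.9% of its variance between groups, with an SD of 0.0905 within groups and 0.0630 between them. In leaves the median member had 66.1% between groups, with an SD of 0.0765 within groups and 0.111 between them. The members' leaf spread thus lay mostly between treatments and their flower spread mostly between libraries of the same treatment. More variance lay between than within groups for 27 members in flowers and for 75 in leaves, against 46.6% of the other eligible genes in flowers and 94.4% in leaves. For 10 members no variance between flower groups was estimated at all, against 2.90% of the other eligible genes. In leaves this held for 0 members, against 0.263%.

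Single members showed both extremes. For GLYMA_17G037700, 91.7% of the leaf variance lay between groups. It had 452, 429 and 445 FPKM in the salinity leaf libraries, 314, 306 and 289.9 FPKM in the salinity + acidity libraries, and 341 and 346 FPKM in the control libraries, so the 3 groups did not overlap. GLYMA_06G320200 was the opposite in leaves, with 1.37% of the variance between groups, but had 68.9% between groups in flowers. Its leaf salinity + acidity libraries alone ran from 118 to 145 FPKM, against leaf extremes of 101 and 161 FPKM over all treatments. The largest share between groups in flowers was that of GLYMA_13G094800, 74.4%. It averaged 31.1 ± 1.31 FPKM in the 3 cadmium libraries, its highest flower group, and 24.1 ± 0.541 FPKM in the 3 control libraries.

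Group means of the median member ranged over 0.315 on the log2 scale in flowers and 0.442 in leaves, and the widest range of any member was 0.552 in flowers and 0.620 in leaves. The other eligible genes had median ranges of 0.518 in flowers and 1.20 in leaves. The members' extremes were not spread evenly over treatments in the values as deposited. The same counts were not made for other genes or after scaling of the libraries. In flowers the highest group mean fell in acidity + water deficit for 23 members and in low phosphate for 12, and the lowest in cadmium for 18. In leaves the highest fell in salinity + acidity for 27 members, in the 5-stress combination for 23 and in water deficit for 10. The lowest leaf group mean fell in acidity + water deficit + low phosphate for 22 members, in water deficit + low phosphate for 13 and in water deficit for 11.

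**Figure D3:**
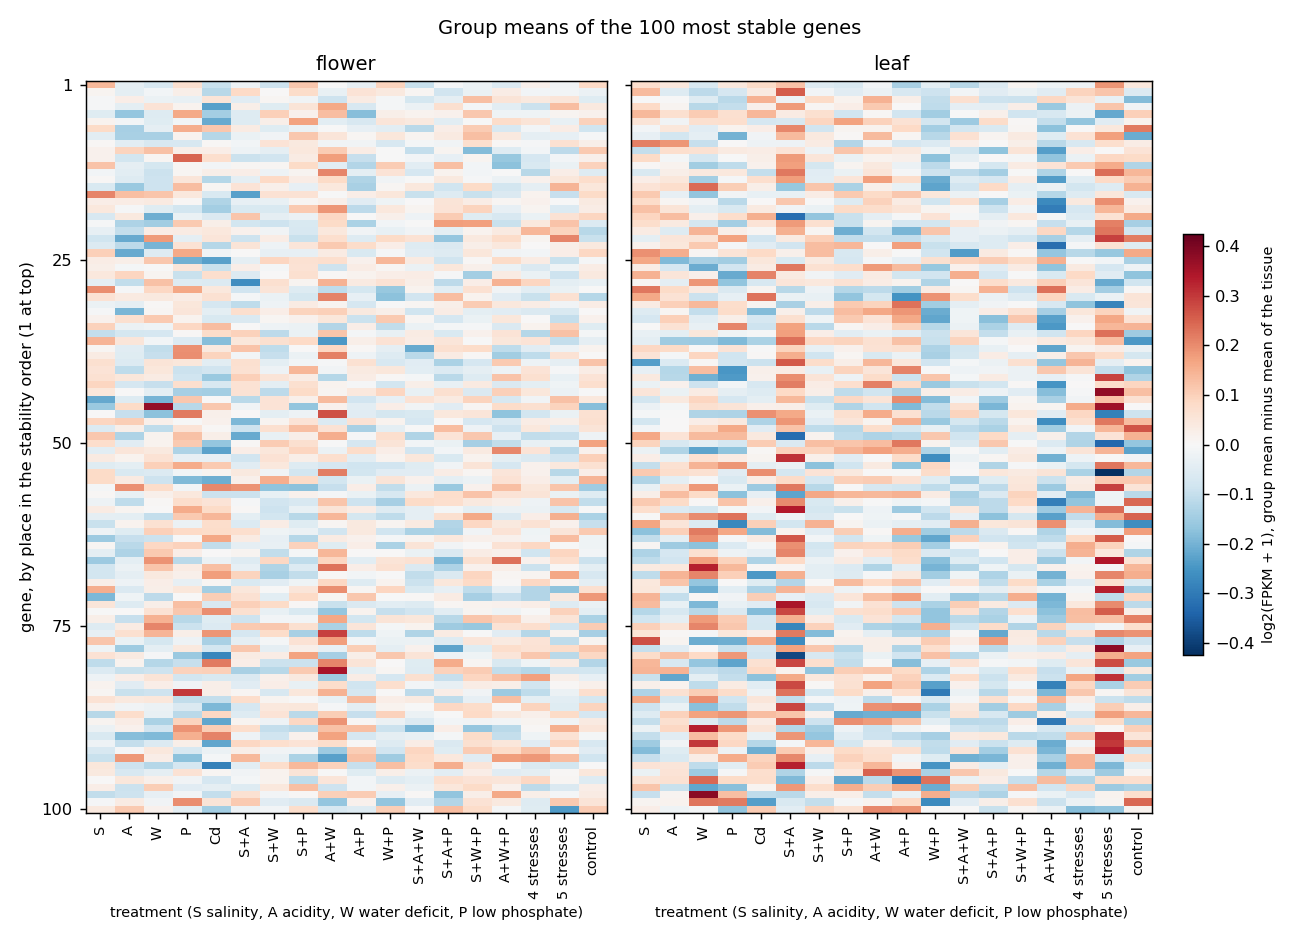
Difference of each group mean from the gene's mean over its tissue, on the log2(FPKM + 1) scale (colour, running to the largest deviation), for the 100 members from the lowest score at the top to the highest at the bottom, in 18 flower groups (left) and 18 leaf groups (right), control last. Leaf columns for salinity + acidity and for the 5-stress combination are mostly red, and that for acidity + water deficit + low phosphate is mostly blue, while flower columns are paler.

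The typical level of the members also differed by library. Each library's offset was taken as the median, over the members, of log2(FPKM + 1) minus the gene's mean over the tissue. The offset ran from -0.0512 to 0.0819 over flower libraries, with an SD of 0.0254, and from -0.108 to 0.0993 over leaf libraries, with an SD of 0.0485. The pooled SD within groups was 0.0209 in flowers and 0.0172 in leaves, so that most of the leaf spread, but not of the flower spread, lay between groups. The leaf groups highest in offset were salinity + acidity, at 0.0886 ± 0.0167, and the 5-stress combination, at 0.0735 ± 0.00807 (SD, n = 3 each). The lowest were acidity + water deficit + low phosphate, at -0.0989 ± 0.0149, and water deficit + low phosphate, at -0.0885 ± 0.00385 (SD, n = 3 each), against 0.0289 in the 2 control libraries. The other eligible genes were also high in salinity + acidity, at 0.197, and low in acidity + water deficit + low phosphate, at -0.105. In the 5-stress combination they were at -0.0447 where the members were at 0.0735, and in the control at -0.0980 where the members were at 0.0289. The offsets were not corrected for library scale, taken as the log2 median ratio to the tissue's typical library. That ratio was 0.114 to 0.135 in the 5-stress combination and 0.0543 and 0.113 in the control. In acidity + water deficit + low phosphate it was -0.319 to -0.233. Whether the offsets follow it was not tested. In a single library at most 71 of the 100 members lay above their own mean, in flowers as in leaves, and at least 24 did in flowers and 22 in leaves.

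**Figure D4:**
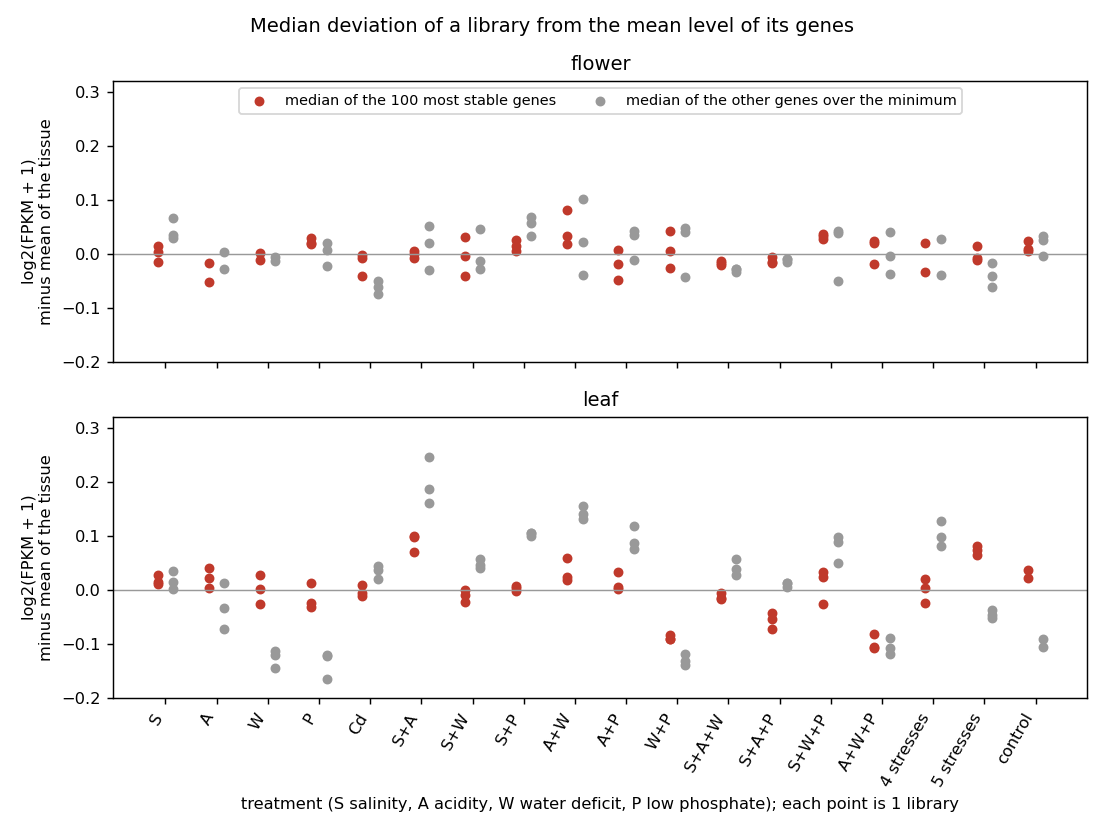
Median over the 100 members (red) and over the 3417 other eligible genes (grey) of log2(FPKM + 1) minus the gene's mean over the tissue, for each flower library (top) and leaf library (bottom) by treatment, control at the right. Members stay between -0.108 and 0.0993 in leaves while the other genes run from -0.165 to 0.245.

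Against control, the members were called less often than all features, which the choice of members by low spread fixes in advance. A call had an adjusted p under 0.05 in limma, fitted to 33792 flower or 28678 leaf features (minimum mean 1 FPKM). The control libraries are shared by all 17 comparisons of their tissue. Over 17 flower comparisons the members had 89 calls of 1700, or 5.24%, against 9.53% over all features tested and 14.6% over the other eligible genes. Over 17 leaf comparisons they had 543 of 1700, or 31.9%, against 45.3% over all features and 60.4% over the other eligible genes. At least 1 call was made for 48 members in flowers, against 51.6% of all features and 74.04% of the other eligible genes, and for 93 in leaves, against 93.2% and 98.7%. Both counts are near the share over all features. Leaving out a replicate number throughout gave fewer calls, 58 in flowers without replicate 1 and 474 in leaves without replicate 3. In these settings the groups with n = 2 kept their libraries. Calls fell further when another number was left out. The leaf control, or each flower group with n = 2, is then a single library, assumed to vary like the other groups. Shares over all features are not given for these settings, so the fall in calls is not shown to be particular to the members.

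In flowers the most members were called under cadmium, 26 (10 higher and 16 lower), where 30.2% of all features were called. Under acidity + water deficit 15 members were called (13 higher and 2 lower), against 21.0% of features, and 10 when its replicate 3 was left out. The 5-stress combination had 9 members called, against 17.6% of features, acidity + water deficit + low phosphate had 8, against 10.1%, and salinity + water deficit + low phosphate had 6, against 11.3%. With 4 members each were water deficit (7.96% of features called), salinity + acidity (10.3%) and salinity + acidity + low phosphate (9.55%), and with 3 each acidity (6.69%) and water deficit + low phosphate (5.38%). Acidity + low phosphate had 2 members called, against 6.13%. A single member was called under salinity (4.52% of features), low phosphate (3.35%), salinity + water deficit (4.65%), salinity + acidity + water deficit (7.88%) and the 4-stress combination (3.48%). Under salinity + low phosphate 0 members were called, against 1.87% of features. The median absolute change of the members lay between 0.0455 and 0.131 on the log2 scale over the 17 flower comparisons, and that of the other eligible genes between 0.0805 and 0.245.

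In leaves the most members were called under acidity + water deficit + low phosphate, 48 (10 higher and 38 lower), where 57.4% of features were called. Salinity + acidity had 45 members called (32 higher and 13 lower), against 70.1%, and water deficit + low phosphate had 43 (9 higher and 34 lower), against 46.3%. The 4-stress combination had 40 members called, against 57.6%, and so had salinity + acidity + water deficit, against 55.2%. The 5-stress combination had 37 (25 higher and 12 lower), against 60.3%. Between 34 and 38 members were called under acidity + low phosphate (45.9% of features), salinity + low phosphate (49.2%), salinity + acidity + low phosphate (52.4%), salinity + water deficit (52.4%) and acidity + water deficit (50.1%). Salinity had 32 members called, against 41.5%, and cadmium 32, against 47.2%. Salinity + water deficit + low phosphate had 26, against 44.8%, water deficit 17, against 24.1%, and acidity 3, against 12.2%. Under low phosphate 0 members were called, against 3.82%. The median absolute change of the members was between 0.0591 and 0.173 over the 17 leaf comparisons, and that of the other eligible genes between 0.0850 and 0.763.

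The direction of the leaf calls depended on how libraries were scaled. As deposited, 238 of the 543 leaf calls were higher and 305 lower, or 43.8% higher. After each library was divided by its median ratio to the tissue's typical library, 420 were higher and 144 lower, or 74.5% higher. That scaling moved the median change of all features by between -0.03 and 0.27 on the log2 scale over the leaf comparisons, and by more than 0.1 in 5 of them. The median member then lay above control in 17 of 17 leaf comparisons, and as deposited in 7. In acidity + water deficit + low phosphate the members' median change was 0.20 after scaling, with 54 members called higher and 2 lower. The median of all features was then 0.04. As deposited the members' median was -0.13 and that of all features -0.23. In flowers 51 calls were higher and 38 lower as deposited, 57.3% higher, and 29 higher and 95 lower after scaling, 23.4% higher. The directions of calls over all features were not counted. These counts therefore do not show a direction particular to the members.

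The largest single changes were modest. They were picked as the largest among members that the rule chose for low spread over these same libraries. That spread also sets the SEs and p-values printed with them, which are descriptions and not independent tests. GLYMA_04G103900 had 144 and 147 FPKM in the 2 flower water-deficit libraries, against 97.5, 99.6 and 99.9 FPKM in the flower control libraries, with no overlap. The difference was 0.55 ± 0.07 on the log2(FPKM + 1) scale (SE), with a limma adjusted p of 1.4e-06. This gene was called in 10 of the 17 flower comparisons, the most of any member, and its leaf difference under water deficit was 0.07. GLYMA_10G295700 had 46.5, 44.0 and 56.5 FPKM in flower acidity + water deficit libraries, against 34.8 to 36.8 FPKM in the 3 control libraries, a difference of 0.43 ± 0.09 (SE). Without replicate 3 of that treatment the difference was 0.33.

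GLYMA_09G026100 had 32.2, 32.1 and 35.4 FPKM in leaf salinity + acidity libraries, against 50.03 and 48.6 FPKM in the leaf control libraries. Its values in the treated leaves were all below control, by -0.56 ± 0.07 on the log2 scale (SE; limma adjusted p = 8.8e-09, a description as above). Its flower difference was -0.05. GLYMA_11G050000 had 18.9, 17.6 and 16.3 FPKM in leaf acidity + water deficit + low phosphate libraries, against 26.0 and 25.8 FPKM in control. That is -0.53 ± 0.08 (SE) as deposited and -0.20 after scaling to the median ratio. As the choice by low spread largely fixes, 99 members stayed under 0.5 in size in every flower comparison, against 63.3% of features and 71.3% of the other eligible genes. In every leaf comparison 97 members did, against 19.97% of features and 11.9% of the other eligible genes.

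An interval shows what a missed call leaves possible, although low spread over the same libraries was the ground of choice. Narrow intervals near 0 were thus largely fixed in advance, and their counts describe the choice. Each interval holds for its own comparison and not jointly for all of them. As deposited, the 95% confidence interval lay within 0.5 of no change on the log2 scale in all 17 flower comparisons for 90 members. It did so in all 17 leaf comparisons for 57 and in all 34 for 52. These counts were not made for other genes. Nor were they made after scaling to the median ratio, which moved the members' median leaf change by up to 0.33. GLYMA_17G243600, the steadiest over both tissues together, had 51.6, 53.9 and 54.2 FPKM in the leaf salinity + acidity libraries, against 44.6 and 40.6 FPKM in the leaf control, a difference of 0.32 ± 0.06 (SE). No call was made for 52 members in flowers, against 48.4% of features, and for 7 in leaves, against 6.76%, shares close to those over all features. Uncalled in both tissues were 5 members, GLYMA_19G209700, GLYMA_19G176700, GLYMA_14G093200, GLYMA_01G044000 and GLYMA_16G142600. The share of all features uncalled in both tissues was not counted, so these 5 are given only as a list. For GLYMA_19G209700 the widest interval bound was 0.238 in flowers and 0.356 in leaves. For GLYMA_01G044000 it was 0.393 in flowers and 0.560 in leaves, so a missed call there covers a wider range of changes.

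Low spread in 1 tissue went with low spread in the other only in part. The 100 eligible genes with the lowest leaf SDs had a median flower SD of 0.117, against 0.170 over all eligible genes, and 81 of them were members. In flowers 40 of these 100 stood among the 351 lowest SDs and 86 below the median. The 100 genes with the lowest flower SDs had a median leaf SD of 0.228, against 0.326 over all eligible genes, and 13 of them were members. In leaves 28 of these stood among the 351 lowest SDs and 87 below the median. Spearman's rho between the flower and the leaf SD was 0.460 across the 3517 genes, which share libraries and scaling and are not independent replicates.

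The rule used each tissue's mean as a minimum and its spread, and did not use the difference between flower and leaf levels. That difference was fitted over all 18 treatments in 1 limma fit of both tables. The spread within tissues that the rule chose to be low also sets the members' SEs and p-values. Those are not independent of the rule. The minimum of 20 FPKM in both tissues leaves out genes with little transcript in 1 of them and so limits the differences that members can show, which makes the other eligible genes, held to the same minimum, the closer comparison. FPKM is scaled within a library, so these differences are relative to the transcripts each tissue holds. A call here had an adjusted p under 0.05 and a difference of at least 1 on the log2 scale. Of 100 members, 5 were called higher in flowers than in leaves, where 21.1% of the 27337 features tested were, and 6 were called lower, where 9.12% were. With both directions together 11 members were called, against 30.3% of features and 34.1% of the other eligible genes. Without the limit on size, 95 members had an adjusted p under 0.05 in limma, against 94.4% of features, so over 104 libraries small differences passed as well.

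The median absolute difference between flowers and leaves was 0.486 in the members, 0.765 in the other eligible genes and 0.665 over all features tested. The libraries of the tissues overlapped for 60 members. Every flower library lay above every leaf library for 26 members, against 17.6% of features and 13.4% of the other eligible genes, and below for 14, against 6.43% and 14.5%. Either way it was 40 members, against 24.0% of features and 28.0% of the other eligible genes. Separate ranges are not independent of the rule, which chose narrow ranges within each tissue.

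Some members steady within each tissue were far apart between them. GLYMA_17G037700 had 54.3, 63.6 and 74.1 FPKM in the lowest, median and highest flower library and 289.9, 367 and 452 FPKM in the corresponding leaf libraries. The difference was -2.50 ± 0.01 on the log2 scale (SE; limma adjusted p = 2.02e-96). GLYMA_20G207100 had 32.2, 39.6 and 47.8 FPKM in flowers and 179, 217 and 271 FPKM in leaves, a difference of -2.43 ± 0.02 (SE; limma adjusted p = 6.62e-91). Both genes were lower in every flower library than in every leaf library.

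In the other direction, GLYMA_04G009400 had 319, 406 and 499 FPKM in the lowest, median and highest flower library and 105, 135 and 171 FPKM in the corresponding leaf libraries. It was higher in flowers by 1.59 ± 0.02 on the log2 scale (SE; limma adjusted p = 4.28e-70). GLYMA_16G073600 had 95.1, 108 and 134 FPKM in flowers and 29.7, 35.2 and 44.0 FPKM in leaves, also a difference of 1.59 ± 0.02 (SE; limma adjusted p = 2.53e-73). GLYMA_17G243600 was at the other end, with 44.4 ± 3.15 FPKM in flowers and 44.5 ± 3.45 FPKM in leaves (SD over 51 and 53 libraries). Its difference was -0.00, with a 95% confidence interval from -0.04 to 0.03.

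**Figure D5:**
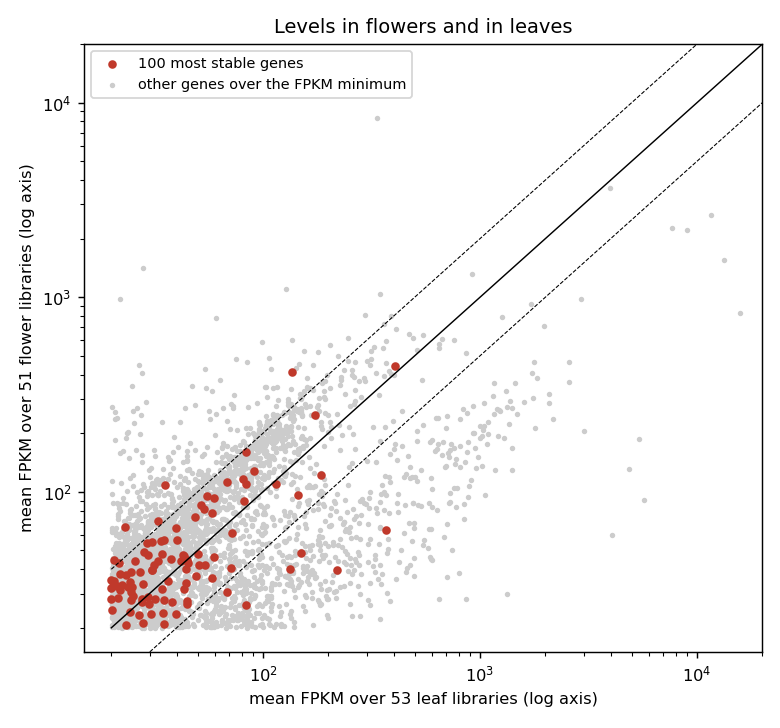
Mean FPKM over 51 flower libraries (y axis, log scale) and over 53 leaf libraries (x axis, log scale) for the 100 members (red) and the 3417 other eligible genes (grey), with a solid line at equal levels and dashed lines at a 2-fold difference. Most members lie between the dashed lines, and the red point farthest below them is GLYMA_17G037700, at 63.9 FPKM in flowers and 367 FPKM in leaves.

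These calls depended on the scale shared by the tissues. Scaling all 104 libraries to 1 common median ratio moved the median of all features by -0.47 and every member by between -0.60 and -0.57 on the log2 scale. On that scale 0 members were called higher in flowers, against 10.8% of features, and 17 lower, against 14.3%. Of the 3417 other eligible genes, 155 were called higher and 879 lower. As many as 31 members changed sign. GLYMA_04G009400 and GLYMA_16G073600 then differed by 0.999 and 1.00, just under the limit, while GLYMA_17G037700 and GLYMA_20G207100 stood at -3.09 and -3.02. The difference of GLYMA_17G243600, near 0 as deposited, became -0.59. Relative to the median of all features, 17 members lay at least 1 away, 3 above it and 14 below.

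Over the libraries of both tissues at once, the members formed a less uniform set. The median member had an SD of 0.277 over all 104 libraries, between 0.103 and 1.26, against 0.509 in the other eligible genes. In all, 27 members were among the 100 lowest SDs over both tissues. For each of the 4950 pairs of members, the SD of the log2 ratio of the 2 genes had a median of 0.153 in flowers, 0.177 in leaves and 0.349 in both tissues together, where the largest reached 2.07. Averaged over a gene's pairs, this ratio SD was lowest for GLYMA_08G193400 in flowers, 0.125, for GLYMA_05G213800 in leaves, 0.148, and for GLYMA_19G209700 over both tissues, 0.332. GLYMA_17G037700 had the highest average over both tissues, 1.35. Such ratios cancel any factor common to a library, and they are a description of genes chosen for low spread.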

How the data were processed

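RNA-seq values were deposited as 1 FPKM table per tissue, computed by the authors from reads aligned with HISAT2 2.2.1 per the submitters' processing notes. The counting tool, genome build and annotation are not given in the sources used here, and read totals are unknown. Groups came from the sample labels. Of 108 columns, 4 equal to the mean of the other 2 of their group were left out, leaving 104 libraries. Values were taken as log2(FPKM + 1), which understates changes of low genes.

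The members follow from the spread rule, so comparisons within a tissue are descriptions. The members' SEs and p-values for flower minus leaf rest on the same low spread. The members and lists were chosen with earlier results of these data known. Differences were fitted with limma 3.58.1 (R 4.3.3; trend and robust moderation, Benjamini-Hochberg adjustment) on all groups of a tissue, or on all 36 groups for flower minus leaf, with a minimum mean of 1 FPKM per feature. The fits were tested on simulated data. Within-group SDs are pooled over the groups, and shares between groups are variance components. Tables were made with numpy 2.4.6 and pandas 2.3.3 under Python 3.11.15, and plots with matplotlib 3.10.9.

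Genes named are the 10 lowest scores, 3 on each side of the threshold, and the extremes in level, share between groups, stress change and flower minus leaf. At most 2 rises and 2 falls per comparison are printed because identifiers could not be matched to names (0 of 57147), which also left the planned gene lists unused. Alternatives changed the pseudocount, minimum level, scaling, spread measure, averaged columns, replicate block and libraries. Each sample pools 5 to 7 plants, and p-values measure the spread between such pools.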

Additional observations from a re-analysis of the deposited data

Results flagged for a closer look

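GLYMA_10G295700 moved in opposite directions in the tissues under acidity + water deficit. In flowers it had 46.5, 44.0 and 56.5 FPKM in the treated libraries and 34.8 to 36.8 FPKM in the 3 control libraries, all treated values above all control values (0.43 ± 0.09 on the log2 scale, SE). In leaves it had 31.2, 29.0 and 29.6 FPKM in the treated libraries and 35.8 and 34.7 FPKM in the 2 control libraries, all treated values below (-0.23 ± 0.07, SE). The difference between the tissues was not tested. It was singled out because every treated library of 1 tissue lay on the other side of control from every treated library of the other tissue. Only the named genes with the largest stress changes were checked for this, so its share among members or features is unknown. Without replicate 3 of the flower treatment the flower difference was 0.33.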

How the results depend on the processing

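Which genes were members depended on the minimum level, the scaling and the measure of spread. Of the 100 members, 47 were chosen again with a minimum mean of 10 FPKM and 19 with 50 FPKM, at which only 19 were still over the minimum. After scaling to the median ratio 47 were chosen again, with the flower SD alone 13, with the SD over both tissues together 27 and with the SD within groups 9. Other choices kept more, with 94 under a pseudocount of 0.1, 98 with the averaged columns, 79 with group means, 90 with the coefficient of variation and 81 with the leaf SD alone. Leaving out a replicate number or 1 library kept between 78 and 98. Of the first 10, 8 were chosen again after scaling and all 10 when any replicate number was left out.

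Member calls against control ranged from 220 to 566 in leaves and from 20 to 101 in flowers as libraries were left out, the upper ends being the single libraries added as alternatives after the data were seen. With the averaged columns counted as libraries they were 655 in leaves and 132 in flowers. Shares over all features are not given for these settings, so the changes in calls are not shown to be particular to the members. For flower minus leaf under the common scaling, 0 members were called higher, against 10.8% of features, and 17 lower, against 14.3%. Under the other alternatives the counts stayed within 1.5 times of the reported ones. Correlations of same-numbered libraries had a median of 0.00 in both tissues. Between flower and leaf libraries of the same number the median was 0.0145, with a range from -0.114 to 0.192. No sign of pairing by replicate number was seen, although medians near 0 cannot exclude it. With the number as a replicate block there were 538 leaf calls, 92 flower calls, and 5 members higher and 6 lower in flowers. Of 72 alternative values of named differences, 70 kept their direction and their side of the threshold and 2 fell below it, GLYMA_04G009400 and GLYMA_16G073600 under scaling. Of 60 alternative scores of the first 10 members, 58 stayed among the 100 lowest scores of their setting, and GLYMA_12G181300 and GLYMA_14G210700 did not under scaling. Read depth is unknown, and 2 control libraries limit every leaf comparison.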

Other observations

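The rule left 5 genes out by identifier. GLYMA_12G051100 stood in place 208 of the eligible genes with a score of 0.173, GLYMA_12G020500 in place 906 with 0.247, GLYMA_18G290800 in place 1087 with 0.264, and GLYMA_12G024700 in place 2289 with 0.408. GLYMA_06G038500 averaged 6.63 ± 0.729 FPKM in flowers and 4.23 ± 0.727 FPKM in leaves (SD over 51 and 53 libraries), under the minimum of 20 FPKM.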
